A study of Homo sapiens with 11 samples.

Results

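The mitosis genes are 44 genes listed by symbol for their known roles: the kinases, cyclins, spindle checkpoint proteins, kinetochore subunits, spindle and cytokinesis factors and condensins that carry a cell through division. Of the 44 symbols, 43 were found among the 31325 gene rows of the array table. CDK1 is not listed under that symbol. A row named CDC2, the older symbol of CDK1 in the human RefSeq gene table of assembly GRCh38.p14, was kept apart and enters no count below.

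mRNA was measured on 11 Illumina HumanHT-12 v4 BeadChips after transfection of miR-365a-3p or a control miRNA into 2 established human cancer cell lines, MDA-MB-231 (breast) and SKOV3 (ovarian, called SKOV3.ip1 in the study). MDA-MB-231 cells gave 3 arrays with miR-365a-3p and 3 with the control miRNA, and SKOV3 cells gave 3 and 2. The control cells were transfected too, so the groups share the transfection and differ in the miRNA. The sample labels give 48 h of treatment and the series text gives 24 h, and the sources used here do not settle which holds. The labels number the replicates and do not state that they came from separate cultures, so the p-values measure the spread between these samples, which may be technical.

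Entry into mitosis is driven by CDK1 bound to cyclin A or B, with the kinases PLK1 and Aurora A. The spindle checkpoint then holds sister chromatids together until every kinetochore is attached, after which the anaphase-promoting complex with CDC20 releases separase. Many of these genes are transcribed in a burst in G2 and M phase through a promoter element named the cell cycle genes homology region (CHR), often with CCAAT boxes, and FOXM1 is a transcription factor of that burst. Because transcript levels of such genes follow the cycle, their sum is commonly used as a measure of proliferation. They are not used as such a measure here. The study reports that miR-365a did not lower the proliferation of either line in flat culture. In RNA from a whole culture, fewer cells in G2 and M phase and less RNA of a gene per cell cannot be told apart.

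The transfected miRNA is shown because its bases 2 to 8, the seed in capitals, are the part that pairs with target mRNAs. The mature sequence is from RefSeq (chr16:14309340-14309361, plus strand, GRCh38.p14).
hsa-miR-365a-3p: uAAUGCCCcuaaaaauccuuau

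Values are log2 array signals. The deposited columns did not share one distribution, and they were quantile normalized across the 11 arrays before 4 group means were fitted with limma. A gene is said to have risen or fallen when its p-value, adjusted (Benjamini-Hochberg) over the 31325 rows, was under 0.05. The lowest 60% of row means, a cut chosen here and not set by detection p-values, lay below 7.45. This band, called the background band below, is near the background of the array, where differences are compressed. Before the extra normalization the 75th percentile of the signals was 7.56 to 7.65 on the miR-365a-3p arrays of MDA-MB-231 against 7.86 to 7.93 on its controls, and 7.67 to 7.80 against 7.98 to 8.04 in SKOV3. After the extra normalization the groups still differed in the balance of families of short proteins against long ones, among rows with a mean above 8. In MDA-MB-231 the median of 169 short-protein genes minus that of 24 long-protein genes was 3.69 to 3.92 with miR-365a-3p. With the control it was 1.43 to 2.03. In SKOV3 it was 3.41 to 3.88 against 2.16 to 2.28. The part of this shift in the changes below was not tested. HDAC4, an earlier known target of miR-365a, fell by 1.08 in MDA-MB-231 (adjusted p = 9.16e-05) and by 0.75 in SKOV3 (adjusted p = 0.00208). CCND1, another, fell by 2.09 in MDA-MB-231 (adjusted p = 0.00258) and differed by −0.78 in SKOV3 (adjusted p = 0.289), and BCL2 fell by 0.11 in MDA-MB-231 (adjusted p = 0.00284) with group means of 7.35 to 7.47. The treated means of HDAC4 and BCL2 lay in the background band. Of the markers of the lines, ERBB2 was 10.86 in control SKOV3 and 7.61 in control MDA-MB-231 cells, and VIM was above 13 in all 4 groups. SPARC, listed as a marker of MDA-MB-231, lay in the background band there and at 8.52 in control SKOV3, and ESR1, listed as absent from both, was at 8.83 in control SKOV3. CDH1, an epithelial marker listed for SKOV3, lay in the background band in all 4 groups. The 7 leukocyte and endothelial markers had group means between 7.25 and 7.47.

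In MDA-MB-231 cells 18 of the 43 mitosis genes fell and 6 rose. Over all rows 11.7% fell and 14.4% rose, so the share of mitosis genes that fell (41.9%) was above the background and the share that rose (14%) was near it. The mitosis genes are well expressed, and among the 6853 rows with a mean signal above 8, which hold 38 of them, 26.2% of rows and 36.8% of the mitosis genes fell, while 39% of rows and 15.8% of the mitosis genes rose. The falls were led by the topoisomerase TOP2A, the spindle assembly factor TPX2, the spindle pole protein ASPM and the condensin subunit NCAPD2, which were between 3.25-fold and 3.78-fold lower. The rises were led by the checkpoint kinase TTK (2.43-fold) and the checkpoint protein MAD2L1 (1.95-fold).

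In SKOV3 cells 8 mitosis genes fell, where 7.11% of all rows did, and 4 rose, where 7.25% of all rows did. Among rows with a mean above 8, 15.3% fell against 10.5% of the mitosis genes there, and 23.4% rose against 10.5%. The number that rose depends on the settings: without SKOV3 control replicate 2 it was 1, with an intensity trend and robust variances 7, and with rows below the median of row means left out 10.

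All 12 mitosis genes called in SKOV3 were called in the same direction in MDA-MB-231, 8 as falls (5.39% of all rows fell in both lines) and 4 as rises (5.76%). Among rows with a mean above 8 the order is the other way round: 13.4% of rows and 10.5% of the mitosis genes fell in both lines, and 21% of rows and 10.5% of the mitosis genes rose. Another 12 were called in MDA-MB-231 and not in SKOV3, and 19 in neither. The median change was −0.34 on the log2 scale in MDA-MB-231, with a range from −1.92 to 1.28, and −0.026 in SKOV3, with a range from −1.22 to 1.07, beside 0.0064 and 0.0066 over all rows and 0.17 and 0.15 over rows above 8. The SKOV3 median turned to 0.081 without miR-365a-3p replicate 1, to 0.032 without miR-365a-3p replicate 3 and to 0.0051 without control replicate 1. Of the 43 genes, 21 were lower in both lines, 14 were higher in both, and 29 had the larger change in MDA-MB-231. As a description across these 43 genes, which share arrays and are not independent, Pearson's r between the changes in the 2 lines was 0.92 and Spearman's rho 0.90, beside 0.86 and 0.88 across rows with a mean above 8, and 0.83 and 0.64 across all rows.

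**Figure D1:**
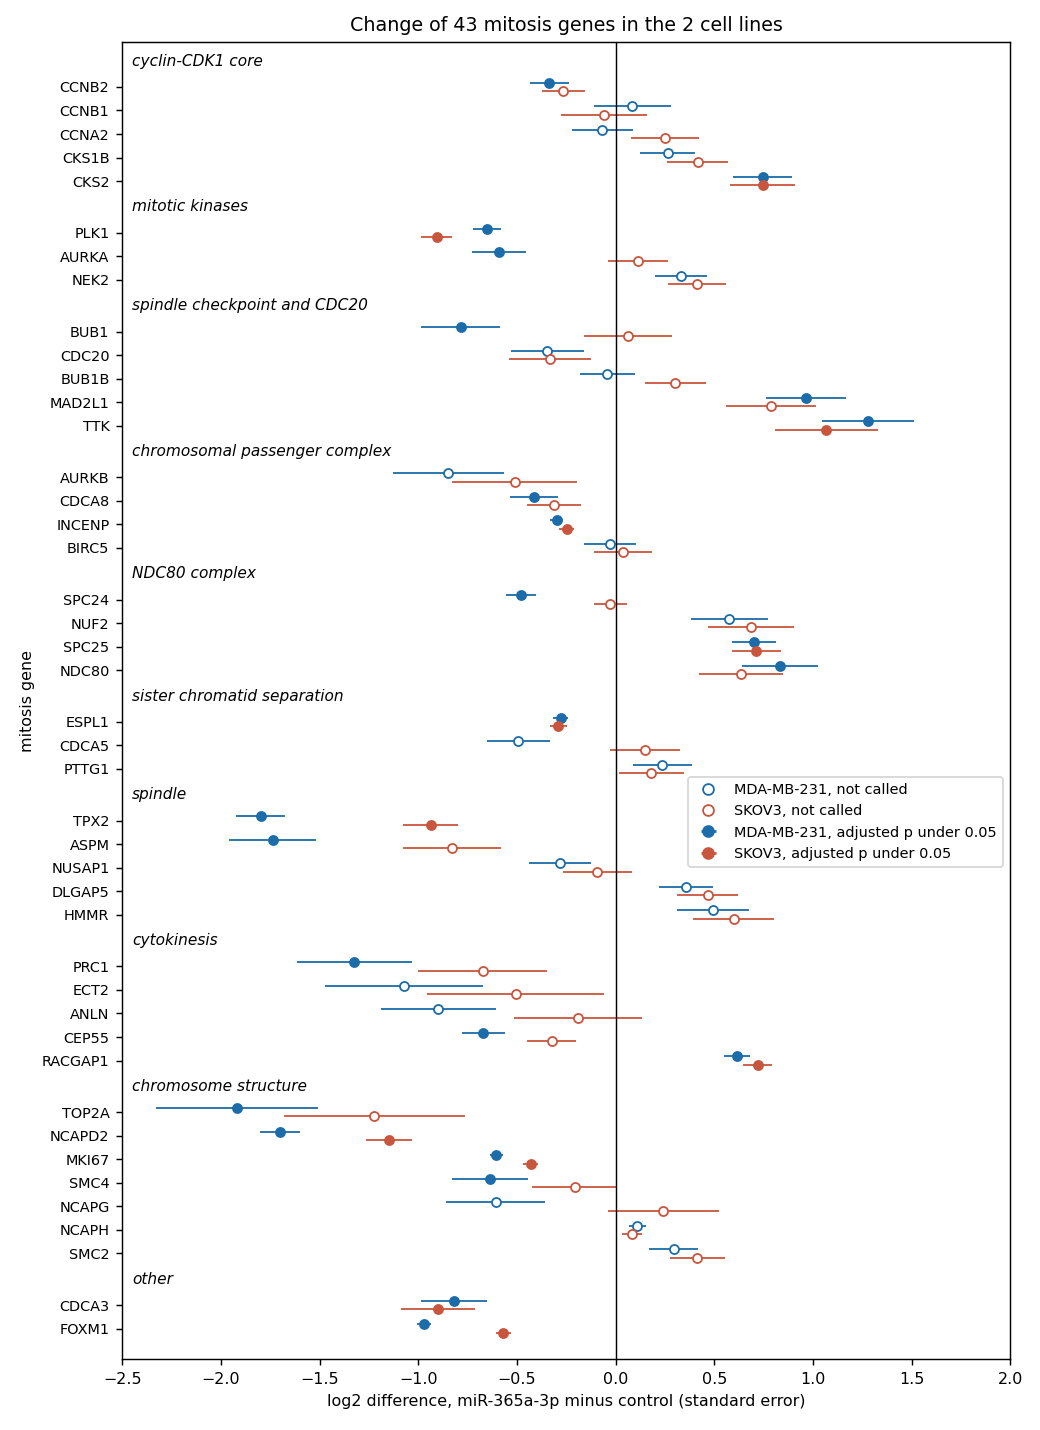
Change of each mitosis gene on the log2 scale (x axis, miR-365a-3p minus control, bars the standard error of the fit), grouped by role, in MDA-MB-231 (blue, 3 against 3 arrays) and SKOV3 (red, 3 against 2 arrays). Filled points passed the adjusted threshold: 24 in MDA-MB-231 and 12 in SKOV3. Changes run from −1.92 (TOP2A in MDA-MB-231) to 1.28 (TTK in MDA-MB-231).

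The promoters of the mitosis genes were read for the CHR (TTTGAA or TTCGAA), for CCAAT and for 4 forms of the E2F site (TTTCCCGC, TTTCGCGC, TTTGCCGC and TTTGGCGC), each on either strand, in RefSeq windows of 250 bases before to 50 after the transcript start. A window was found for 37 of the 43 genes. FOXM1, RACGAP1, TPX2, BIRC5, AURKA and TTK had none. A CHR match was in 30 of the 37 (81.1%), beside 19.5% of the 27305 genes with a window. CCAAT was in 29 (78.4%, beside 39.7%), and 22 (59.5%, beside 7.85%) held both in one window. The E2F forms were in 2 (5.41%, beside 3.99%). Within 50 bases before to 30 after the start, 24 of the 37 had a CHR match (64.9%, beside 5.38% of all genes), and the median position of the match nearest the start was −22.5. Genes of both directions held CHR matches, which were in 4 of the 4 with a window that rose, in 14 of the 15 that fell and in 12 of the 18 called in neither line. CCAAT was in 3 of the 4, 14 of the 15 and 12 of the 18. A match is a run of letters and not a shown binding site.

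The promoters of PLK1, MKI67, INCENP, CDCA3, CKS2 and SPC25 are printed as examples, from both directions, in which CHR and CCAAT matches lie close to the start. They do not stand for all: the nearest CHR match lay at −151 in TOP2A, −145 in NCAPD2 and −113 in ASPM, which had the largest falls in MDA-MB-231 among genes with a window, SPC24 held no CHR match, and NDC80, which rose, held no CCAAT. Each is 120 bases of GRCh38.p14 read 5′ to 3′ on the gene's strand, 115 before to 5 after the RefSeq start, with CHR and CCAAT matches of either strand in capitals. The first 4 genes fell in both lines and the last 2 rose in both. In MKI67 a CHR and a CCAAT match on the other strand overlap by 1 base.
PLK1 (chr16:23678774-23678893, plus strand): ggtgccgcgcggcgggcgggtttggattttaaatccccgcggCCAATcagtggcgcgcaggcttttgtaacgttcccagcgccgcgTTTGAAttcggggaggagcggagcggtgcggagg
MKI67 (chr10:128126419-128126538, minus strand): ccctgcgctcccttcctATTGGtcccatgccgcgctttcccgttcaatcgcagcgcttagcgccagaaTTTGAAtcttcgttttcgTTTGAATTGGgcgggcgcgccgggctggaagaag
INCENP (chr11:62123896-62124015, plus strand): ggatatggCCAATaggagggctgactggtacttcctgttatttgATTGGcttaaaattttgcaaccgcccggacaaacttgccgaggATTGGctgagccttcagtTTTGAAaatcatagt
CDCA3 (chr12:6851282-6851401, minus strand): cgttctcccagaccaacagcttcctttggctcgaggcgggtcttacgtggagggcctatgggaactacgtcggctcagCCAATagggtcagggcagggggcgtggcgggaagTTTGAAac
CKS2 (chr9:89311080-89311199, plus strand): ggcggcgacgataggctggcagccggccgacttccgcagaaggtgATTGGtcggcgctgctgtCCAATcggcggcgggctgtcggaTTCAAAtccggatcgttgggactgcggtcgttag
SPC25 (chr2:168890426-168890545, minus strand): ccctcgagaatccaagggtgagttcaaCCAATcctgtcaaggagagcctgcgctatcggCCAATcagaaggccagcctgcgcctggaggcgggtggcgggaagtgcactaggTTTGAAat

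**Figure D2:**
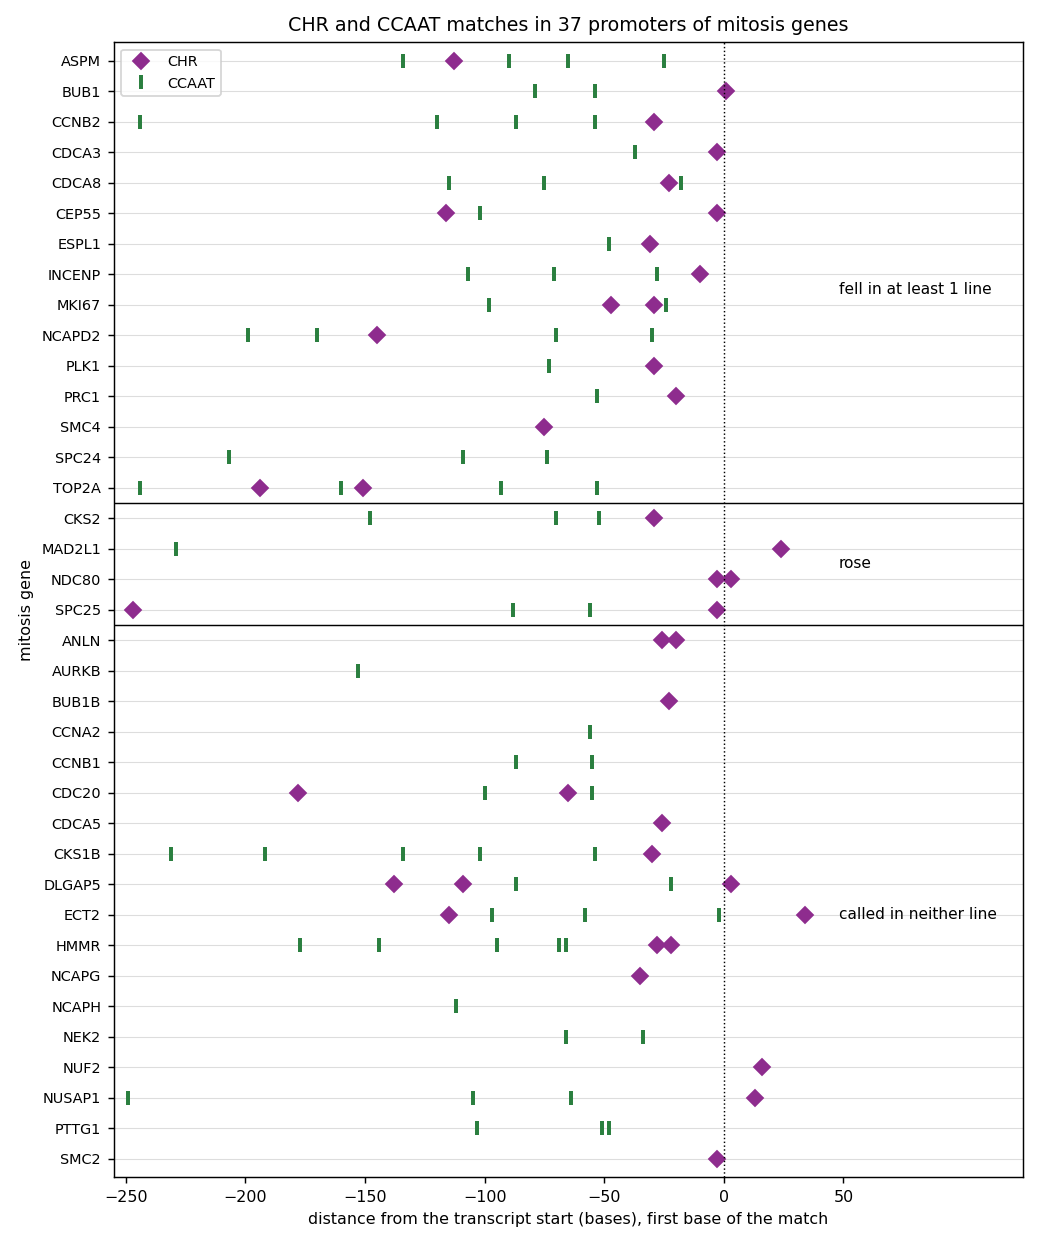
Position of CHR matches (diamonds) and CCAAT matches (bars) on either strand in the promoters of 37 mitosis genes, as distance in bases from the RefSeq transcript start (x axis, dotted line at the start), with the first window of each gene drawn. Genes that fell in at least 1 line (15), rose (4) or were called in neither (18) are drawn in 3 blocks, and most CHR matches lie near the start in each block, those of TOP2A, NCAPD2 and ASPM being farther upstream.

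The regulators of entry into mitosis moved unequally. PLK1, the Polo-like kinase of spindle assembly and mitotic entry, gave 7.56, 7.71 and 7.72 with miR-365a-3p and 8.28, 8.34 and 8.32 with the control in MDA-MB-231, and 7.75, 7.91 and 7.80 against 8.85 and 8.60 in SKOV3. In both lines all miR-365a-3p arrays were below all control arrays. PLK1 fell by 0.65 (SE 0.070, adjusted p = 0.000248) and by 0.91 (SE 0.078, adjusted p = 0.000170), a 1.57-fold and a 1.87-fold decrease. Its treated MDA-MB-231 mean of 7.66 was close above the background band, and on the deposited values the changes were −0.92 and −1.19. FOXM1, the transcription factor of the G2 and M phase genes, gave 7.40, 7.43 and 7.34 against 8.37, 8.31 and 8.40 in MDA-MB-231, and 7.40, 7.35 and 7.44 against 7.95 and 7.98 in SKOV3. The 6 miR-365a-3p arrays of the 2 lines overlapped each other inside the background band, and all lay below the 5 control arrays. FOXM1 fell by 0.97 (SE 0.035, adjusted p = 1.51e-06) in MDA-MB-231 and by 0.57 (SE 0.040, adjusted p = 5.99e-05) in SKOV3.

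AURKA, the Aurora A kinase of spindle poles, fell by 0.59 in MDA-MB-231 (adjusted p = 0.0118) and differed by 0.11 in SKOV3 (adjusted p = 0.794). NEK2, a kinase of centrosome separation, differed by 0.33 and 0.41 (adjusted p = 0.113 and 0.114). Of the cyclins, CCNB2 fell by 0.34 in MDA-MB-231 (adjusted p = 0.0340) and differed by −0.26 in SKOV3 (adjusted p = 0.174). CCNB1 and CCNA2, cyclins B1 and A2, differed by at most 0.25 in either line and passed in neither. CKS2, a small subunit that binds CDK1, gave 12.35, 12.41 and 12.06 with miR-365a-3p against 11.74, 11.58 and 11.26 in MDA-MB-231, and 12.84, 12.91 and 12.64 against 12.21 and 11.89 in SKOV3. The treated arrays were above the controls throughout, and CKS2 rose by 0.74 in MDA-MB-231 (SE 0.15, adjusted p = 0.00581) and by 0.74 in SKOV3 (SE 0.17, adjusted p = 0.0183). The call in SKOV3 was lost without control replicate 2 (adjusted p = 0.176) and with cyclic loess normalization (adjusted p = 0.0645). Its paralogue CKS1B differed by 0.26 and 0.42 (adjusted p = 0.234 and 0.125). The row CDC2 rose by 0.74 in SKOV3 (adjusted p = 0.0283) and differed by 0.45 in MDA-MB-231 (adjusted p = 0.0793).

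Of the 5 genes of the spindle checkpoint with CDC20, 2 rose and 1 fell in MDA-MB-231 (39% and 26.2% of rows above 8 did). In SKOV3 1 rose and none fell (23.4% and 15.3%). TTK, the MPS1 kinase that starts checkpoint signalling at kinetochores, gave 10.98, 10.72 and 10.69 with miR-365a-3p against 10.05, 9.05 and 9.46 in MDA-MB-231, and 10.73, 10.54 and 10.22 against 9.34 and 9.51 in SKOV3. No treated array fell within the range of its controls, although the MDA-MB-231 controls were widely spread. TTK rose by 1.28 (SE 0.23, adjusted p = 0.00367) and by 1.07 (SE 0.26, adjusted p = 0.0266). The call in SKOV3 was lost without miR-365a-3p replicate 1 or 2 or without either SKOV3 control (adjusted p from 0.0554 to 0.170). MAD2L1, the checkpoint protein that binds and holds CDC20, gave 11.23, 11.13 and 10.77 against 9.85, 10.37 and 10.02 in MDA-MB-231, and 11.68, 11.16 and 11.09 against 10.69 and 10.35 in SKOV3. Its treated arrays were again all above the controls. MAD2L1 rose by 0.96 in MDA-MB-231 (SE 0.20, adjusted p = 0.00728), and the difference of 0.79 in SKOV3 just missed the threshold (SE 0.23, adjusted p = 0.0510).

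BUB1, the kinase that recruits other checkpoint proteins, fell by 0.79 in MDA-MB-231 (adjusted p = 0.0177) and differed by 0.063 in SKOV3. BUB1B, which encodes BubR1, differed by −0.042 and 0.30 and CDC20, the activator of the anaphase-promoting complex, by −0.35 and −0.33, none of these past the threshold. In the NDC80 complex, which binds microtubules at the kinetochore, 2 of 4 genes rose and 1 fell in MDA-MB-231 (39% and 26.2% of rows above 8 did). SPC25 gave 8.81, 8.45 and 8.33 against 7.82, 7.87 and 7.79 in MDA-MB-231, and 8.83, 8.62 and 8.66 against 8.04 and 7.94 in SKOV3. Every treated array was above every control array of both lines, and SPC25 rose by 0.70 (SE 0.11, adjusted p = 0.00177) and by 0.71 (SE 0.12, adjusted p = 0.00565), the latter not past the threshold without SKOV3 control replicate 2 (adjusted p = 0.0647). On the values as deposited its rises were smaller, 0.35 (adjusted p = 0.0129) and 0.46 (adjusted p = 0.00882). NDC80 gave 10.70, 10.51 and 10.41 against 9.78, 9.47 and 9.88 in MDA-MB-231, and 10.50, 10.14 and 9.71 against 9.58 and 9.38 in SKOV3. The groups did not overlap in either line. NDC80 rose by 0.83 in MDA-MB-231 (SE 0.19, adjusted p = 0.0112) and differed by 0.64 in SKOV3 (SE 0.21, adjusted p = 0.0889). NUF2, the partner of NDC80 in its dimer, differed by 0.58 and 0.69 (adjusted p = 0.0610 and 0.0737). SPC24, the partner of SPC25, went the other way from SPC25 in MDA-MB-231, with a fall by 0.48 (SE 0.076, adjusted p = 0.00176), and differed by −0.026 in SKOV3.

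The chromosomal passenger complex corrects faulty attachments and then marks the spindle midzone. None of its 4 genes rose in either line by limma (0 at an unadjusted p under 0.05). Rises made up 14.4% of all rows and 39% of rows above 8 in MDA-MB-231, and 7.25% and 23.4% in SKOV3. With 4 genes, the complex is too small to set a count of 0 apart from these shares. INCENP, its scaffold, gave 7.34, 7.37 and 7.31 against 7.58, 7.63 and 7.70 in MDA-MB-231, and 7.37, 7.44 and 7.40 against 7.65 and 7.64 in SKOV3. The groups did not overlap, and the treated means of both lines lay in the background band. INCENP fell by 0.30 (SE 0.033, adjusted p = 0.000307) and by 0.25 (SE 0.037, adjusted p = 0.00289). CDCA8, the Borealin subunit, fell by 0.42 in MDA-MB-231 (adjusted p = 0.0348) and differed by −0.31 in SKOV3. AURKB, its kinase, differed by −0.85 and −0.51, with MDA-MB-231 controls from 9.23 to 10.49 and an adjusted p of 0.0578 there. BIRC5, the Survivin subunit, differed by −0.028 and 0.039. Of the genes of sister chromatid separation, ESPL1, the protease separase, gave 7.60, 7.54 and 7.50 against 7.74, 7.85 and 7.89 in MDA-MB-231, and 7.49, 7.52 and 7.50 against 7.78 and 7.81 in SKOV3. These groups lay close together but apart, just above the background band. ESPL1 fell by 0.28 (SE 0.040, adjusted p = 0.00107) and by 0.29 (SE 0.045, adjusted p = 0.00312). Its inhibitor securin, PTTG1, differed by 0.24 and 0.18, and CDCA5, the cohesin protector sororin, by −0.49 (adjusted p = 0.0505) and 0.15.

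**Figure D3:**
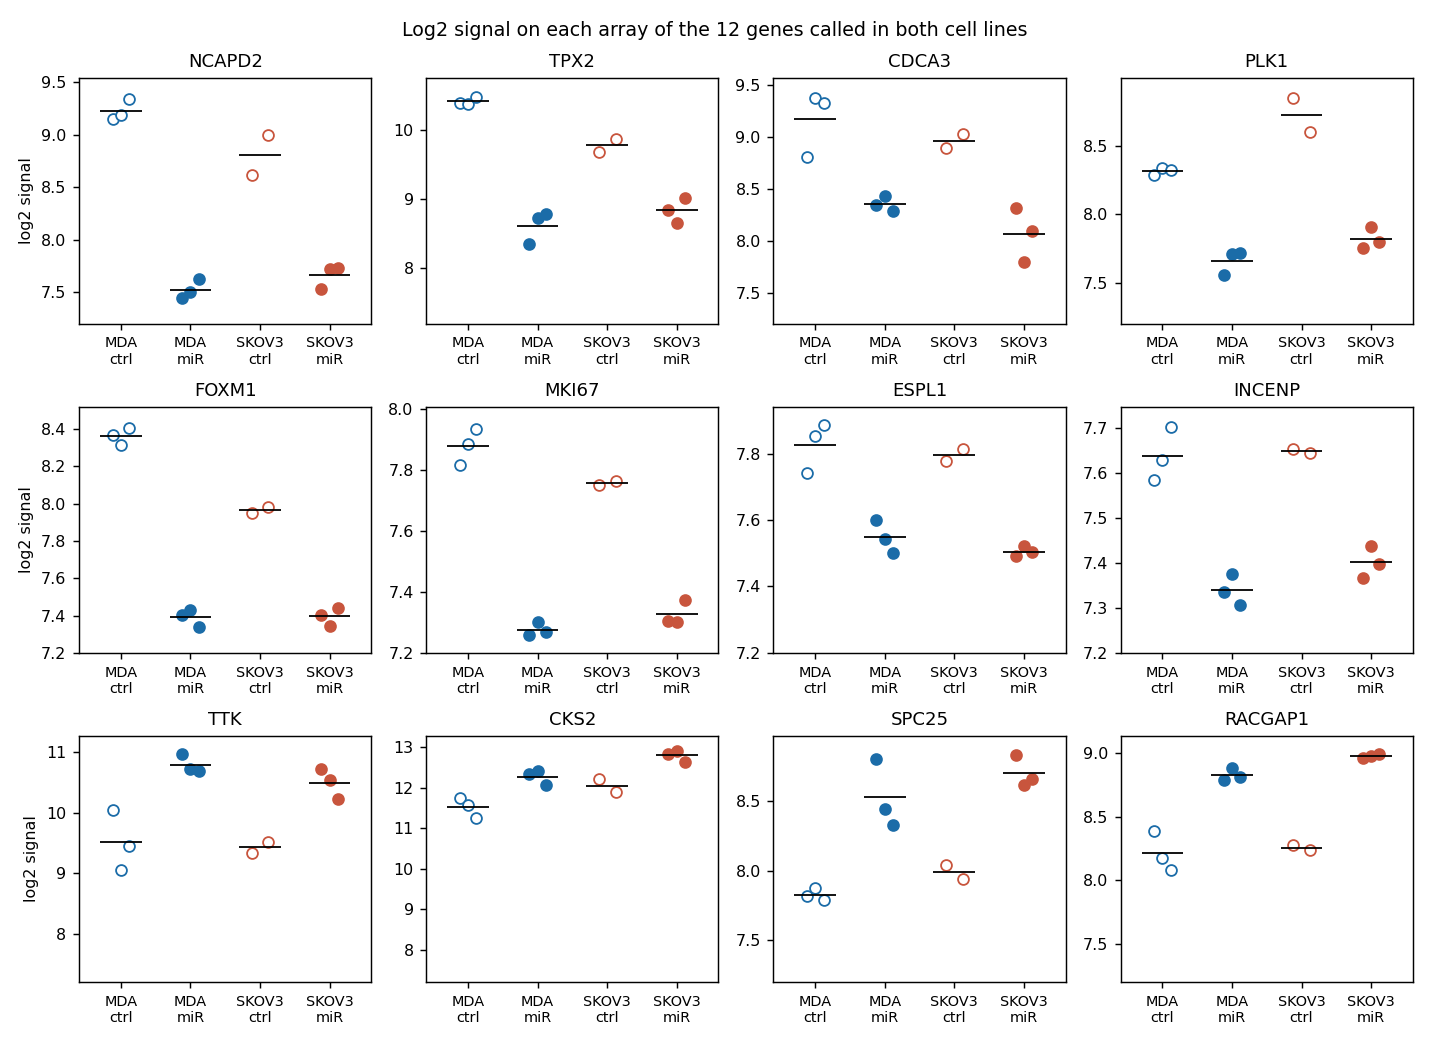
Log2 signal of the 12 mitosis genes called in both lines on each of the 11 arrays (points, open for control and filled for miR-365a-3p, blue for MDA-MB-231 and red for SKOV3), with the mean of each group as a line and a y axis that starts near the array background and differs between panels. In each of the 12 genes the treated arrays of a line lie all below (8 genes) or all above (4 genes) its control arrays. FOXM1, MKI67 and INCENP reach the background band with miR-365a-3p.

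The largest falls were in genes of the spindle and of chromosome structure. TPX2, which activates Aurora A and nucleates spindle microtubules, gave 8.35, 8.72 and 8.78 against 10.39, 10.38 and 10.48 in MDA-MB-231, and 8.85, 8.66 and 9.01 against 9.68 and 9.87 in SKOV3. Treated and control arrays were more than 1 log2 unit apart in MDA-MB-231 and closer, without overlap, in SKOV3. TPX2 fell by 1.80 (SE 0.12, adjusted p = 2.93e-05), which is 3.47-fold, and by 0.94 (SE 0.14, adjusted p = 0.00264), which is 1.91-fold. ASPM, a spindle pole protein, gave 8.72, 8.64 and 8.67 against 10.57, 10.46 and 10.21 in MDA-MB-231, and 8.54, 9.59 and 9.21 against 9.96 and 9.92 in SKOV3. The SKOV3 treated arrays were widely spread, replicate 1 the lowest, and still lay below both controls. ASPM fell by 1.74 in MDA-MB-231 (SE 0.22, adjusted p = 0.000607), and the difference of −0.83 in SKOV3 did not pass (SE 0.25, adjusted p = 0.0602). Without SKOV3 miR-365a-3p replicate 1 it was −0.54 and passed (adjusted p = 0.0412). HMMR and DLGAP5, further spindle proteins, differed by 0.36 to 0.60 in the 2 lines and NUSAP1 by −0.28 and −0.092, none of them past the threshold.

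Among the genes of chromosome structure, 4 of 7 fell in MDA-MB-231 (11.7% of all rows and 26.2% of rows above 8 did) and 2 in SKOV3 (7.11% and 15.3%). NCAPD2, a condensin I subunit, gave 7.44, 7.50 and 7.62 against 9.14, 9.19 and 9.33 in MDA-MB-231, and 7.53, 7.72 and 7.73 against 8.62 and 9.00 in SKOV3. The treated arrays were in or near the background band, and all were far below the controls. NCAPD2 fell by 1.70 (SE 0.10, adjusted p = 1.61e-05), or 3.25-fold, and by 1.15 (SE 0.12, adjusted p = 0.000398), or 2.21-fold, values that the background limits. TOP2A, the enzyme that disentangles sister chromatids, gave 9.34, 9.53 and 9.80 against 11.88, 10.98 and 11.58 in MDA-MB-231, and 9.27, 10.91 and 10.77 against 11.53 and 11.55 in SKOV3. The SKOV3 value of replicate 1 was well below its 2 fellows. TOP2A fell by 1.92 in MDA-MB-231 (SE 0.41, adjusted p = 0.00803), and the difference of −1.22 in SKOV3 did not pass (SE 0.46, adjusted p = 0.129) and was −0.70 without that array.

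MKI67, which encodes the proliferation antigen Ki-67 on the chromosome surface, gave 7.26, 7.30 and 7.27 against 7.82, 7.89 and 7.94 in MDA-MB-231, and 7.31, 7.30 and 7.37 against 7.75 and 7.77 in SKOV3. Its treated arrays were all in the background band. MKI67 fell by 0.60 (SE 0.033, adjusted p = 1.00e-05) and by 0.43 (SE 0.037, adjusted p = 0.000168). The 2 SMC subunits of condensin differed from each other: SMC4 fell by 0.63 in MDA-MB-231 (adjusted p = 0.0402), and SMC2 was at 0.30 there and at 0.41 in SKOV3, past the threshold in neither. The condensin I subunit NCAPG differed by −0.61 and 0.24, and NCAPH, near the background band in every group, by 0.11 and 0.082. CDCA3, a protein of a ubiquitin ligase that acts at mitotic entry, gave 8.34, 8.43 and 8.28 against 8.81, 9.38 and 9.33 in MDA-MB-231, and 8.31, 7.79 and 8.09 against 8.89 and 9.03 in SKOV3. All treated arrays were below the controls. CDCA3 fell by 0.82 (SE 0.17, adjusted p = 0.00627) and by 0.90 (SE 0.19, adjusted p = 0.0130), the latter no longer past the threshold without SKOV3 control replicate 1 or 2 (adjusted p = 0.0639 and 0.117).

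Of the 5 cytokinesis genes, 1 rose and 2 fell in MDA-MB-231 (14.4% and 11.7% of all rows did, 39% and 26.2% of rows above 8). In SKOV3 1 rose and none fell (7.25% and 7.11% of all rows, 23.4% and 15.3% of rows above 8). RACGAP1, the GTPase-activating subunit of centralspindlin, gave 8.79, 8.88 and 8.81 against 8.39, 8.17 and 8.08 in MDA-MB-231, and 8.96, 8.98 and 9.00 against 8.27 and 8.24 in SKOV3. The treated SKOV3 arrays were close to each other, and treated and control arrays did not overlap in either line. RACGAP1 rose by 0.61 (SE 0.066, adjusted p = 0.000256) and by 0.72 (SE 0.074, adjusted p = 0.000436). On the values as deposited, without the extra normalization, its change in MDA-MB-231 was 0.26 and did not pass (adjusted p = 0.0658). In SKOV3 the deposited values gave a smaller rise of 0.46 (adjusted p = 0.0132). ECT2, the exchange factor that binds RACGAP1, differed by −1.07 and −0.51 (adjusted p = 0.0897 and 0.627), with SKOV3 treated arrays from 9.49 to 11.20. PRC1, the microtubule bundler of the midzone, fell by 1.32 in MDA-MB-231 (SE 0.29, adjusted p = 0.00950) and differed by −0.67 in SKOV3. CEP55, an abscission protein, fell by 0.67 in MDA-MB-231 (SE 0.11, adjusted p = 0.00217) and differed by −0.32 in SKOV3. ANLN, the scaffold protein anillin, differed by −0.90 (adjusted p = 0.0521) and −0.19.

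On the deposited values, over rows with a mean above 8, SKOV3 miR-365a-3p replicate 1 differed from replicates 2 and 3 with an SD of 0.499 and 0.381. The other pairs of replicates had an SD of 0.15 to 0.373. Replicate 1 had the lowest treated SKOV3 value of TOP2A, ASPM, ECT2, PRC1 and ANLN, and the highest of TTK, MAD2L1, NDC80 and NUF2. In an exact two-sided permutation of the treatment within cell lines, on the mean of the 2 lines' differences, 15 mitosis genes reached 0.005, the smallest p that the 200 arrangements can give. They were the 12 genes called in both lines with MAD2L1, NUF2 and CEP55, and make up 34.9% of the mitosis genes, beside 15.3% of all rows. Among rows with a mean above 8 the shares were 28.9% of the mitosis genes and 39.7% of rows. An exact test in 1 line alone cannot go below 0.1. In both lines at once, the treated arrays of 14 mitosis genes lay all below and of 8 all above the controls, which was so for 10.3% and 13.3% of all rows. Among rows with a mean above 8 the shares were 22.1% and 36.3% of rows and 26.3% and 21.1% of the mitosis genes.

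**Figure D4:**
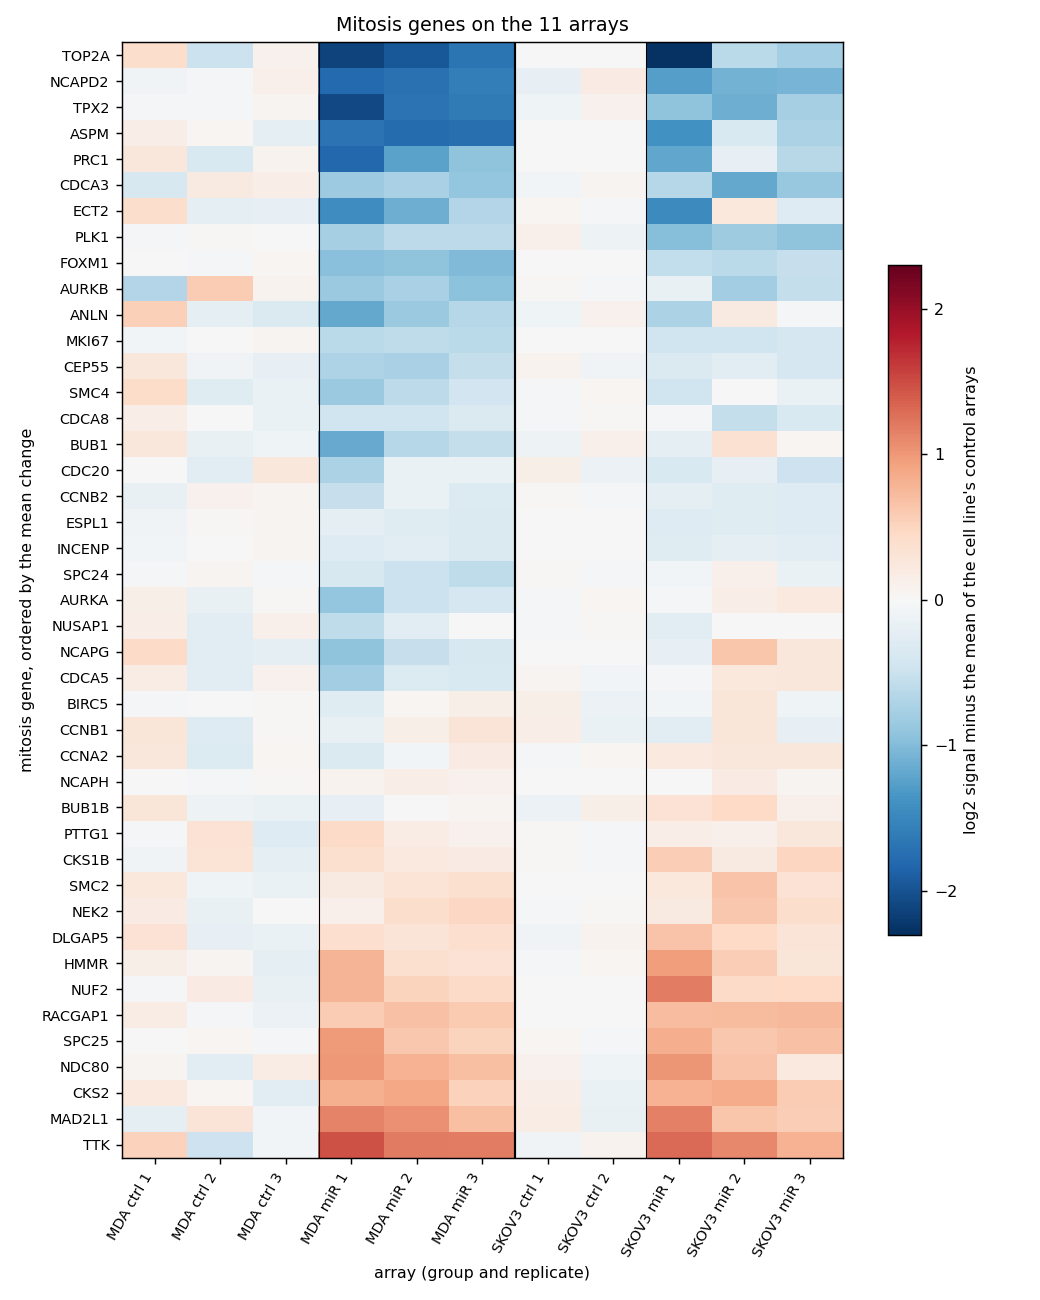
Log2 signal of the 43 mitosis genes (rows, ordered by mean change) on the 11 arrays (columns), minus the mean of the control arrays of the same line, blue for below and red for above. Treated arrays are mostly blue in the upper rows and mostly red in the lower rows in both lines, with stronger blue in MDA-MB-231. SKOV3 miR-365a-3p replicate 1 is a darker blue for TOP2A (9.27) than replicates 2 and 3 (10.91 and 10.77).

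The difference between the 2 responses was tested for every gene. FOXM1 was the only mitosis gene that passed (2.54% of all rows did), with a change higher by 0.40 in SKOV3 (SE 0.053, adjusted p = 0.00601). Its treated means were 7.39 and 7.40 and its control means 8.36 in MDA-MB-231 and 7.96 in SKOV3, so the control means were apart and the treated means side by side in the background band. With the treated means there, the 0.40 cannot be taken as a measure of how far the falls themselves differ. The part of the background in it was not tested. TPX2 came next, with a difference of 0.86 (SE 0.19, adjusted p = 0.0535). For the 12 genes called in MDA-MB-231 and not in SKOV3 the difference between lines did not pass, so none of these responses is shown to differ between the lines, and 10 of the 43 genes had an unadjusted p under 0.05. Among rows with a mean above 8, 4.01% passed and none of the 38 mitosis genes there did, of which 8 had an unadjusted p under 0.05. The call for FOXM1 was lost with cyclic loess normalization (0.21, adjusted p = 0.187) and with a replicate block (0.38, adjusted p = 0.153).

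The level with the control miRNA also differed between lines. In control SKOV3 cells 10 mitosis genes were lower than in control MDA-MB-231 cells, where 7.76% of all rows were, and 3 were higher, where 8.34% were. Among rows with a mean above 8, 20% of rows and 23.7% of the mitosis genes were lower, and 19.2% of rows and 7.89% of the mitosis genes were higher. CEP55 had the largest difference, with a mean of 11.40 ± 0.24 (SD, n = 3) in MDA-MB-231 and 9.96 ± 0.12 (SD, n = 2) in SKOV3, a difference of −1.44 (adjusted p = 7.60e-05). DLGAP5 (−1.34), AURKA (−1.30), BUB1 (−1.17), NUF2 (−0.87), CDCA5 (−0.85), TPX2 (−0.64), CKS1B (−0.63), NCAPD2 (−0.42) and FOXM1 (−0.40) were the others that were lower. HMMR was higher by 1.18 (adjusted p = 0.00398), CDC20 by 0.77 (adjusted p = 0.0361) and PLK1 by 0.41 (adjusted p = 0.00651). These counts lean on the SKOV3 controls, of which there are 2: without replicate 1, 4 genes were lower and 1 was higher. Of the 10 genes that fell in MDA-MB-231 and were not called in SKOV3, 3 had a control level in SKOV3 below their treated level in MDA-MB-231: AURKA (10.25 against 10.96), BUB1 (8.35 against 8.74) and CEP55 (9.96 against 10.73). The other 7 had a control level above it, with TOP2A the farthest (11.54 against 9.56).

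**Figure D5:**
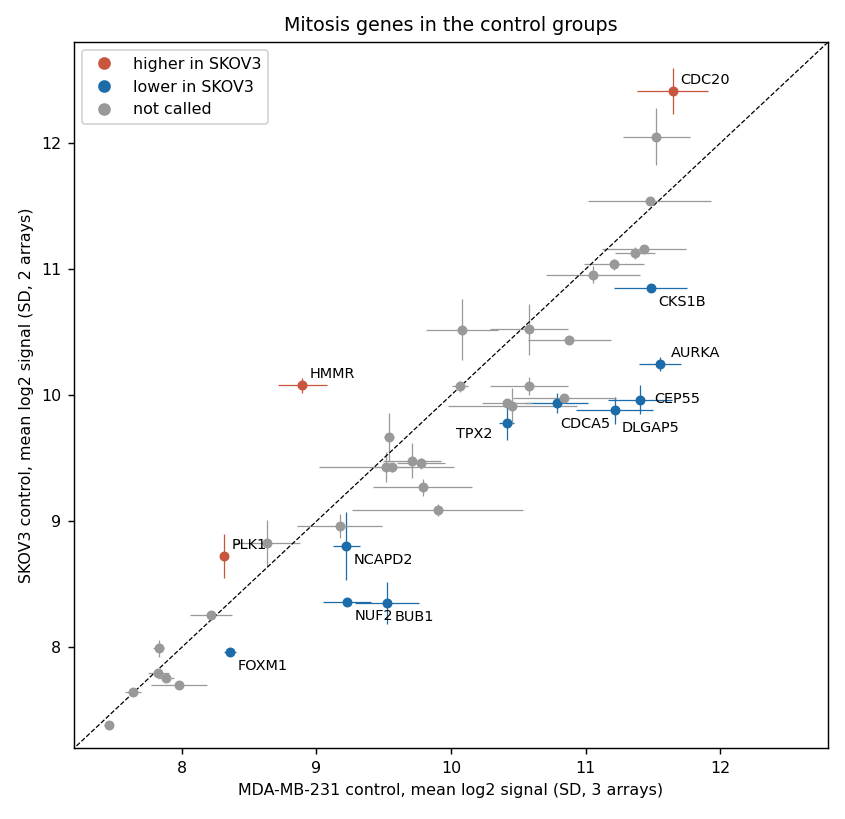
Mean log2 signal of the 43 mitosis genes in control MDA-MB-231 (x axis, 3 arrays) and control SKOV3 cells (y axis, 2 arrays), bars the SD of each group and the dashed line equal levels. The 10 genes lower in SKOV3 (blue) lie below the line, led by CEP55 (−1.44), and the 3 higher ones (red) are HMMR, CDC20 and PLK1.

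The partners of these genes were counted in 6 further lists, whose counts stand against 14.4% of all rows that rose and 11.7% that fell in MDA-MB-231 and 7.25% and 7.11% in SKOV3, or 39%, 26.2%, 23.4% and 15.3% of rows with a mean above 8. The genes named are those called in both lines with the largest mean change. Of 20 kinetochore and checkpoint partners, 10 rose and 2 fell in MDA-MB-231 and 9 rose and none fell in SKOV3 (1 lower at an unadjusted p under 0.05), with medians of 0.31 and 0.41. NSL1, a subunit of the MIS12 complex that anchors NDC80, rose by 1.15 and 0.89, CCDC99, which encodes Spindly, by 1.06 and 0.71, and SKA2, of the SKA complex on kinetochore microtubules, by 0.87 and 0.90. Of 22 kinesins and spindle partners, 11 fell and 1 rose in MDA-MB-231 and 5 fell and 1 rose in SKOV3 (medians −0.39 and −0.12). CKAP5, the microtubule polymerase chTOG, fell by 1.76 and by 1.13, the cytokinesis kinesin KIF20A by 1.26 and by 1.00, and the midbody kinase CIT by 0.80 and by 0.67. Of 24 regulators of mitosis with the anaphase-promoting complex, 6 fell and 5 rose in MDA-MB-231, and 3 fell and 3 rose in SKOV3. CDC25B, a phosphatase that activates CDK1, fell (changes of −0.95 and −2.29), WEE1, the kinase that restrains CDK1, fell by 0.88 and by 0.82, and the complex's subunit ANAPC10 rose by 0.94 and 0.80.

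Of 12 genes of cohesin and condensin II, 5 fell and 1 rose in MDA-MB-231, and 1 fell and 1 rose in SKOV3. The cohesin loader NIPBL fell by 0.38 and by 0.29, and the condensin II subunit NCAPH2 rose by 0.28 and 0.41. Of 33 DNA replication genes, which act in S phase and not in mitosis, 16 fell and 4 rose in MDA-MB-231, and none fell (2 lower at an unadjusted p under 0.05) and 6 rose in SKOV3 (medians −0.28 and 0.069). The primase PRIM1 rose by 1.07 and 0.97, POLE2 of DNA polymerase epsilon by 0.50 and 0.85 and the clamp loader RFC3 by 0.66 and 0.63. The largest falls in MDA-MB-231 were those of MCM10, a replication initiation factor (−1.36), and MCM6, a subunit of the replicative helicase (−1.31), both named after their values were seen. Their differences in SKOV3, −0.29 and −0.10, did not pass. Of 28 G1 regulators, 13 fell and 6 rose in MDA-MB-231, and 3 fell and 3 rose in SKOV3. CDK6, the G1 kinase, fell by 2.24 and by 1.36, the transcription factor E2F3 by 1.16 and by 0.68, and the CDK inhibitor CDKN1B rose by 0.92 and 0.45.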

How the data were processed

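The authors hybridized biotin-labelled cRNA to the BeadChips, normalized the signals with lumi's quantile method and deposited them as log2 values, with 1 row for each symbol. Whether lumi's variance-stabilizing transformation was used in place of log2, and the rule for genes with several probes, are not given in the sources used here. The number of arrays limits the precision. The groups are the labels' cell line and treatment. Because the deposited columns did not share a distribution, quantile normalization over all 11 arrays was applied first (R 4.3.3, limma 3.58.1, lmFit with 4 group means, eBayes, Benjamini-Hochberg over 31325 rows, threshold 0.05), with no filter on low values. The scripts were tested on simulated data. The mitosis genes, their roles, the other lists, the markers, the motifs and the symbol patterns of the protein families were chosen with earlier results of these data known. Array values are given for the genes called in both lines without overlap of arrays, for those called between lines and for up to 4 genes per line and direction with the largest called change. Other scalings, a filter, other variance models, replicate blocks and leaving out each array were tried. The planned comparison with protein length was not run.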

Additional observations from a re-analysis of the deposited data

Results flagged for a closer look

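For FOXM1 the test of the difference between the 2 cell lines passed: its fitted change with miR-365a-3p was higher by 0.40 on the log2 scale in SKOV3 than in MDA-MB-231 (SE 0.053, adjusted p = 0.00601 by limma over all 31325 rows), being −0.97 in MDA-MB-231 and −0.57 in SKOV3. The treated arrays of both lines lay in the background band, at 7.34 to 7.44, and the control arrays at 8.31 to 8.40 in MDA-MB-231 and 7.95 and 7.98 in SKOV3. The control means of the 2 lines differed by −0.40. With both treated means in the band, the difference of 0.40 cannot be taken as a measure of how far the falls differ. The part of the background in it was not tested. The difference was 0.33 with the deposited values (adjusted p = 0.0134), 0.21 with cyclic loess (adjusted p = 0.187) and 0.38 with a replicate block (adjusted p = 0.153), the last 2 not past the threshold. The test of a single array against its group needs 4 arrays and was not run in these groups of 2 or 3.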

How the results depend on the processing

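Over the alternatives, 593 values of the genes described array by array were recomputed: 565 kept their direction and side of the threshold, 13 came to pass it, 15 no longer passed it and 0 changed sign. Of the mitosis genes, 13 fell and 5 rose in MDA-MB-231 under every setting tried, and in SKOV3 PLK1, TPX2, MKI67, NCAPD2 and FOXM1 fell and RACGAP1 rose under every one. On the deposited values 6 mitosis genes were lower in control SKOV3. With only rows above the median of row means, 10 mitosis genes rose in SKOV3 and 2 were called for the difference between lines. With an intensity trend and robust variances, 7 rose in SKOV3. Same-numbered samples correlated by −0.125 to 0.232 in their deviations over 6853 rows, and differently numbered ones by −0.472 to 0.346. Deviations from the mean of a group of 2 or 3 arrays are tied to each other, so these values cannot decide whether the numbers mark pairs. The main fit uses no pairing. With the replicate number as a block within each line, 14 mitosis genes fell and 7 rose in MDA-MB-231, 6 fell and 7 rose in SKOV3, the SKOV3 median was 0.032 and 0 passed for the difference. With a block shared by the lines, 10 mitosis genes were lower and 3 higher in control SKOV3. Leaving out each array in turn, the falls ranged from 14 to 21 and the rises from 6 to 8 in MDA-MB-231, with a median from −0.42 to −0.26. In SKOV3 the falls ranged from 7 to 10, the rises from 1 to 6 and the median from −0.10 to 0.081. The calls for the difference ranged from 1 to 2, and those between controls from 4 to 12 lower and from 1 to 3 higher. Falls made up 73.1% to 77.8% of the calls in MDA-MB-231 and 66.7% to 75% in SKOV3 over 4 scalings. In the main fit 3663 of all rows fell and 4511 rose in MDA-MB-231, and 2228 fell and 2270 rose in SKOV3. Among rows with a mean above 8, 1793 fell and 2673 rose in MDA-MB-231, and 1047 fell and 1603 rose in SKOV3. Of the mitosis genes there, 14 fell and 6 rose in MDA-MB-231, and 4 fell and 4 rose in SKOV3. The scalings moved the median of rows with a mean above 8 between −0.052 and 0.17 in MDA-MB-231, so a small change can be read only relative to that shift. Among other changes of call on the deposited values in MDA-MB-231, CCNB2 no longer passed (adjusted p = 0.118) and DLGAP5 rose (0.46, adjusted p = 0.0232). The cause of these movements was not tested. Signal near the background limits FOXM1, MKI67, INCENP, ESPL1, NCAPD2 and NCAPH, and may limit PLK1 in MDA-MB-231.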
